A study of Neurospora crassa OR74A with 26 samples.

Results

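The 5 carotenoid synthesis genes of the filamentous fungus Neurospora crassa were described across media, times and strains: al-3 (NCU01427), al-2 (NCU00585), al-1 (NCU00552), cao-2 (NCU11424) and ylo-1 (NCU04013). They were chosen by gene ID, as known enzymes of 1 pathway, out of 9733 genes in the deposited tables, and all 5 passed the filter on low values. The study asked how N. crassa regulates its genes when cellulose is the carbon source, and which of these responses need the transcription factors clr-1 and clr-2. RNA was sequenced in 26 libraries of cultures that had been inoculated with conidia, grown for 16 h on sucrose, washed and moved to fresh medium. Wild type (FGSC 2489) went into Avicel (the microcrystalline cellulose Avicel PH101), into sucrose or into medium with no carbon.

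For wild type there are 3 libraries of each sampling at 1 h and 4 h in Avicel and in sucrose, and 3 at 4 h without carbon. Wild type was also sampled once on Avicel at 30 min and 2 h and once without carbon at 1 h. In the 2 deletion strains a hygromycin resistance cassette replaces the reading frame of clr-1 (NCU07705) or clr-2 (NCU08042). Each deletion strain has 1 library per medium (Avicel, sucrose) and time (1 h, 4 h), and each is 1 strain of the collection (FGSC 11029 and FGSC 15835). The design text calls the wild-type triplicates biological, and the labels do not say how light was controlled.

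Carotenoids are isoprenoid pigments, and those of N. crassa give its conidia and illuminated mycelium their orange colour. The product of al-3 makes the precursor geranylgeranyl diphosphate. The protein of al-2 joins such precursors to phytoene and also closes the ring at the chain end, and that of al-1, a desaturase, adds the double bonds that give colour. The oxygenase encoded by cao-2 cleaves torulene, and the aldehyde dehydrogenase encoded by ylo-1 makes the end product neurosporaxanthin. In this fungus blue light acts through the White Collar proteins to raise transcription of the al genes, and carotenoids also build up during conidiation. In the authors' coordinates, al-2 lies on supercontig 1 at 7921219 to 7923155 and al-1 on the same supercontig at 8029920 to 8032264, with 35 genes between them. The others lie apart, al-3 on supercontig 5 at 4030156 to 4032786, ylo-1 on supercontig 6 at 2190963 to 2193406 and cao-2 on supercontig 7 at 4250526 to 4252821.

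Levels are given as FPKM, fragments scaled to transcript length and library size, which puts genes of different length on 1 scale. Libraries hold 11.8 M to 110.6 M recovered reads. Each of the 5 genes has at least 305 reads in every library, so counting error is at most 5.73% of a value. Read length was inferred, as the length at which most coverage values gave whole reads. By it, wild-type replicate 1 at 1 h and 4 h in Avicel and sucrose, 4 libraries in all, has reads of 36 or 40 bases. The single 30 min and 2 h libraries have 36. The other replicates and all deletion libraries have 50 bases and all no-carbon libraries 51, so no carbon and read length cannot be told apart. The short-read replicate 1 libraries also stand apart from their group. Over all genes their r with replicates 2 and 3 was 0.938 to 0.976, against 0.992 to 0.994 between replicates 2 and 3. They hold 11.8 M to 15.9 M reads, where replicates 2 and 3 of these groups hold 38.8 M to 59.8 M. Depth and read length cannot be told apart there. In the 4 clr-2 deletion libraries clr-2 was listed at 0. In those of the clr-1 deletion clr-1 had 6.13 and 11.01 FPKM on Avicel at 1 h and 4 h, where wild type had 253 to 950.3. On sucrose at 1 h it had 12.99 FPKM, where wild type had 22.3 to 59.3. At 4 h on sucrose it had 23.1, where wild type had 40.4 to 53.0. In cultures, fewer cells of a type and less RNA per cell cannot be told apart. In the comparisons below, a difference is on the log2(FPKM + 1) scale with its standard error from limma. Unless said otherwise, that error uses 1 spread per gene, shared by all groups. A gene changed where its Benjamini-Hochberg adjusted p over 8629 genes was under 0.05.

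On Avicel at 4 h, al-3, al-1 and cao-2 were higher than on sucrose, by 2.87-fold, 11.8-fold and 5.89-fold, while al-2 and ylo-1 did not pass. So 3 of the 5 genes rose, where 34.3% of all tested genes were higher and 58.4% changed. The median difference of the 5 was 1.52, against 0.24 over all tested genes.

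The level of al-3 was 383, 514 and 523 FPKM in the 3 Avicel libraries and 169.8, 158 and 161 in the sucrose libraries. Every Avicel library lay above every sucrose library, and the difference was 1.52 ± 0.29 (SE, n = 3 per group, limma adjusted p = 4.531e-04). For al-2 the Avicel libraries had 1053, 829.5 and 922 FPKM and the sucrose libraries 526, 383 and 375. These groups did not overlap either, yet the difference of 1.14 ± 0.49 missed the threshold (limma adjusted p = 0.0615, 95% interval 0.08 to 2.20). The SD of log2(FPKM + 1) for al-2 was 0.17 on Avicel and 0.27 on sucrose. Without carbon at 4 h it was 1.41, and that group enters the shared spread. The difference passed when the fit held the Avicel and sucrose groups alone (limma adjusted p = 0.0035) and with voom on recovered reads (limma adjusted p = 0.0075).

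The level of al-1 was 1129, 651 and 690.2 FPKM on Avicel and 105, 51.1 and 54.9 on sucrose. The lowest Avicel library was well above the highest sucrose library, and the difference of 3.56 ± 0.67 was the largest of the 5 genes (limma adjusted p = 4.392e-04). For cao-2 the Avicel values were 357, 332 and 383 FPKM and the sucrose values 75.2, 52.5 and 53.7. The groups were again separate, with a difference of 2.56 ± 0.43 (limma adjusted p = 1.7e-04). Of the 5 genes, 4 had no overlap between these groups, as did 64.1% of all tested genes.

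The end-of-pathway gene ylo-1 went the other way in its values: 1078, 599 and 519 FPKM on Avicel against 1140, 936 and 855 on sucrose. The groups overlapped through Avicel replicate 1, and the difference was -0.48 ± 0.23 (limma adjusted p = 0.0917). A fit of all wild-type triplicates with the replicate number as a block let the same difference pass (limma adjusted p = 0.0492). The numbers pair Avicel with sucrose there, but not all groups of that fit. Without Avicel replicate 1 it was -0.80 (adjusted p = 0.0015).

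The make-up of the pathway's transcripts therefore differed between the media. On sucrose at 4 h, ylo-1 held 56.6% to 59.3% of the summed FPKM of the 5 genes and al-1 held 3.23% to 5.21%. On Avicel at 4 h, ylo-1 held 17.1% to 26.9% and al-1 held 22.3% to 28.2%. The summed FPKM was 2925 to 4000 on Avicel and 1499 to 2016 on sucrose. On sucrose at 4 h the order from highest to lowest mean was ylo-1, al-2, al-3, al-1 and cao-2, and only the last 2 overlapped. On Avicel at 4 h the order was al-2, al-1, ylo-1, al-3 and cao-2, and of the neighbours in that order only al-3 and cao-2 did not overlap.

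**Figure D1:**
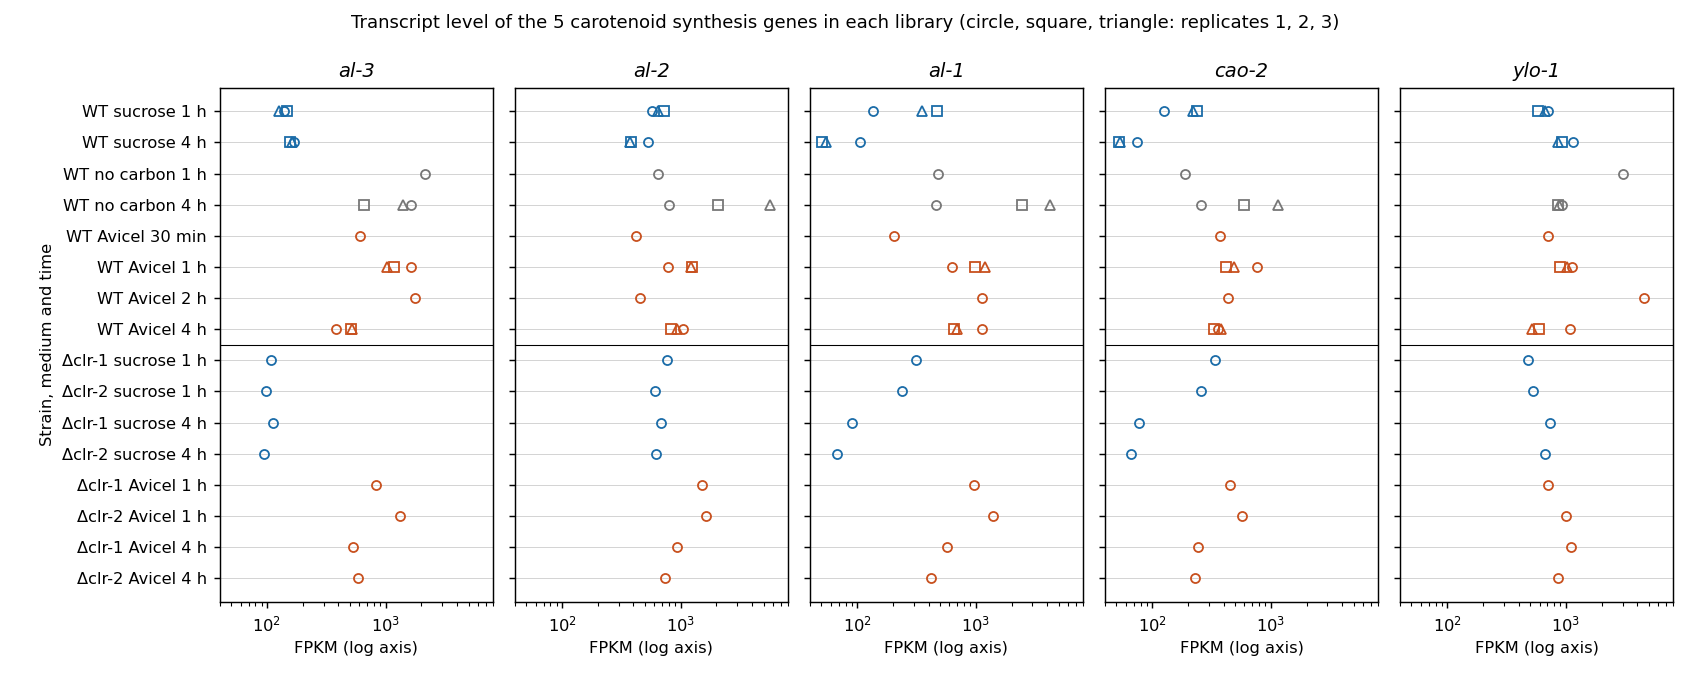
FPKM of each gene (log axis) in every library, with strain, medium and time on the vertical axis and the symbol giving the replicate number; orange is Avicel, blue sucrose and grey no carbon. On sucrose at 4 h al-1 sits between 51.1 and 105 FPKM and on Avicel between 651 and 1129, while ylo-1 overlaps.

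Without carbon at 4 h, al-3, al-2, al-1 and cao-2 were higher than on sucrose and ylo-1 was not distinguishable from it. So 4 of the 5 genes rose, where 39.6% of all tested genes were higher and 63.2% changed. The no-carbon level of al-3 was 1639, 659 and 1387 FPKM, a difference of 2.81 ± 0.29 (n = 3 per group, limma adjusted p = 2.08e-06).

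For al-2 the no-carbon libraries had 802, 2051 and 5702 FPKM, a difference from sucrose of 2.32 ± 0.49 (limma adjusted p = 0.00105). For al-1 they had 463, 2455 and 4181 FPKM, a difference of 4.64 ± 0.67 (limma adjusted p = 4.338e-05). For cao-2 they had 260.4, 589 and 1151 FPKM, a difference of 3.21 ± 0.43 (limma adjusted p = 2.169e-05). All no-carbon libraries of these 4 genes lay above all sucrose libraries, as they or their reverse did for 72.0% of tested genes, and the 4 calls held without each single library in turn. For ylo-1 the no-carbon values were 929, 861 and 880.1 FPKM, inside the sucrose range, with a difference of -0.12 ± 0.23 (95% interval -0.63 to 0.38, limma adjusted p = 0.659). With voom on recovered reads that difference turned to 0.61 (adjusted p = 0.0365).

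The no-carbon triplicates differed among themselves in 4 of the 5 genes. The highest library was 9.03 times the lowest for al-1, 7.11 times for al-2, 4.42 times for cao-2 and 2.49 times for al-3, against 1.08 times for ylo-1. Over 7734 genes averaging 10 FPKM or more, the median of that ratio was 1.37, and 0.711% of these genes had a larger ratio than al-1. The SD of log2(FPKM + 1) in this group was 1.65 for al-1, 1.41 for al-2, 1.07 for cao-2 and 0.70 for al-3. The standard errors above use the spread shared by all groups instead. Replicate 1 was the lowest library for al-1, al-2 and cao-2 and the highest for al-3.

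The 9 light-sensing and light-controlled genes are given beside this, with replicate 1 first. How many of all genes were lowest in replicate 1 was not counted. The photoreceptor gene vvd, itself induced by light, had 1218.5 FPKM in replicate 1, then 5123 and 7316. The cryptochrome gene cry had 229, 691 and 1289 FPKM, the clock gene frq 266, 463 and 687, and wc-1 had 92.8, 261 and 225. In others the libraries were closer: wc-2 had 312, 345 and 366 FPKM, phy-1 had 41.3, 48.3 and 52.3, and phy-2 had 6.26, 7.70 and 6.73. The highest library was 1.17 times the lowest for wc-2 and 1.27 times for phy-1, under the median of 1.37 over all genes. The opsin gene nop-1 had 801, 529 and 894 FPKM and sub-1 had 128, 243 and 126. Among the 5 conidiation markers, con-6 had 1516, 5383 and 4879 FPKM. The values were 1400, 1850.5 and 2575 for con-10 and 171710, 255470 and 301940 for ccg-1, all 3 lowest in replicate 1. The other 2 were highest there, fl with 223, 94.0 and 198 FPKM, and eas, for the hydrophobin of the spore coat, with 206270, 78251 and 65514 FPKM. Replicate 1 also held the fewest reads, 41.2 M against 108 M and 110.6 M. The part of light genes, conidiation and depth in the carotenoid values was not tested.

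**Figure D2:**
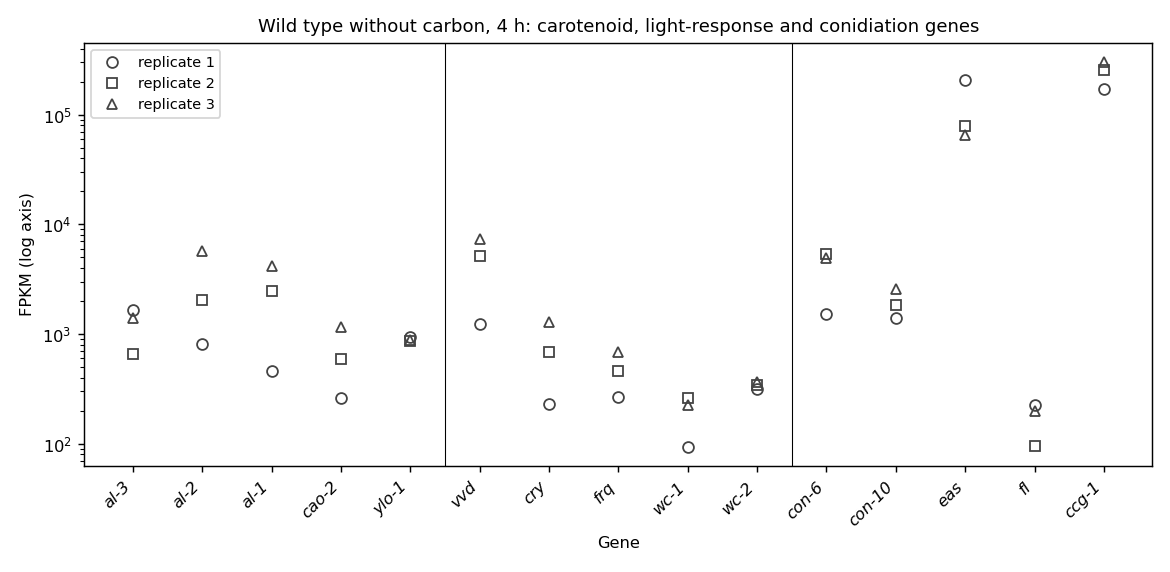
FPKM (log axis) in the 3 wild-type libraries without carbon at 4 h, with symbols giving the replicate. Carotenoid genes are on the left, the light genes vvd, cry, frq, wc-1 and wc-2 in the middle and conidiation genes on the right. Replicate 1 is the lowest for al-1 (463), al-2 (802) and cao-2 (260.4), and for vvd (1218.5) and cry (229). It is the highest for al-3, ylo-1, eas and fl. The light genes nop-1 and sub-1, not lowest in replicate 1, are not drawn, nor are phy-1 and phy-2.

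Avicel and no carbon at 4 h were compared with each other to ask what cellulose itself adds. Here al-3 was lower on Avicel and the other 4 genes did not pass, where 1.73% of all tested genes were lower and 5.39% changed. The difference for al-3 was -1.29 ± 0.29 (n = 3 per group, limma adjusted p = 0.0165), and its groups did not overlap, as for 31.4% of tested genes. The call was lost without Avicel replicate 1 (adjusted p = 0.0684), without no-carbon replicate 1 (0.0869), without no-carbon replicate 3 (0.0826) and when only these 2 groups were fitted (0.121). Without no-carbon replicate 1, al-1 and al-2 were lower on Avicel instead, with differences of -2.005 (limma adjusted p = 0.0484) and -1.88 (limma adjusted p = 0.0102). With all libraries their differences were -1.08 (95% interval -2.52 to 0.37) and -1.18 (95% interval -2.24 to -0.12). For cao-2 the difference was -0.65 ± 0.43 (limma adjusted p = 0.469) and for ylo-1 it was -0.36 ± 0.23 (limma adjusted p = 0.466, and without Avicel replicate 1 -0.67 with 0.0452).

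At 1 h the genes already differed between Avicel and sucrose, in other proportions. Higher on Avicel were al-3, al-1, cao-2 and ylo-1, and al-2 did not pass, where 37.3% of all tested genes were higher and 62.0% changed. The level of al-3 was 1642, 1179 and 1031 FPKM on Avicel and 139, 148 and 126 on sucrose, a difference of 3.19 ± 0.29 (n = 3 per group, limma adjusted p = 6.942e-07) and the largest of the 5. For cao-2 the Avicel values were 767, 417 and 494 FPKM and the sucrose values 126, 239 and 223, a difference of 1.51 ± 0.43 (limma adjusted p = 0.0075). That call was lost without the 4 short-read replicate 1 libraries (0.97, adjusted p = 0.119).

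For al-1 the Avicel values at 1 h were 627, 987 and 1185 FPKM and the sucrose values 137, 476 and 356. The groups did not overlap, but sucrose replicate 1 lay far under the others, and the difference of 1.66 ± 0.67 was close to the threshold (limma adjusted p = 0.0449). It was lost in 4 of 6 fits without 1 library, with sucrose replicate 1 left out giving 1.13 (adjusted p = 0.186), and also after rescaling (0.0679) and with no filter on low values (0.0543). For ylo-1 the values were 1119.5, 890.2 and 1027 FPKM on Avicel against 701, 587 and 664 on sucrose, with a difference of 0.63 ± 0.23 (limma adjusted p = 0.0298). This call too was lost in 4 of 6 such fits, and it became 0.49 (adjusted p = 0.131) after rescaling, which moved the median of all genes from 0.34 to 0.20. For al-2 the values were 776, 1247 and 1227 FPKM on Avicel and 576, 729 and 647 on sucrose, with no overlap and a difference of 0.71 ± 0.49 (limma adjusted p = 0.226, and 0.0406 in a fit of those groups alone). All 5 genes had separate groups here, as did 66.8% of tested genes.

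Whether the Avicel response itself changed from 1 h to 4 h was tested as the difference of the 2 differences. It fell for al-3 and ylo-1, where 16.3% of all tested genes had a lower response at 4 h and 31.1% had a changed one. The al-3 response changed by -1.67 ± 0.40 (limma adjusted p = 0.0077), and the ylo-1 response went from 0.63 to -0.48, a change of -1.12 ± 0.33 (limma adjusted p = 0.0211). Without the 4 short-read replicate 1 libraries the al-3 value was -1.31 (adjusted p = 0.0537). The ylo-1 call was lost without Avicel 4 h replicate 2 (adjusted p = 0.0534), without Avicel 4 h replicate 3 (0.0549), without sucrose 1 h replicate 2 (0.0543) and after rescaling (0.0644). For al-1 the response was larger at 4 h by 1.91 ± 0.95 and for cao-2 by 1.05 ± 0.61, and neither passed (limma adjusted p = 0.144 and 0.209). The al-1 value passed in a fit of those 4 groups alone (adjusted p = 0.0482).

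**Figure D3:**
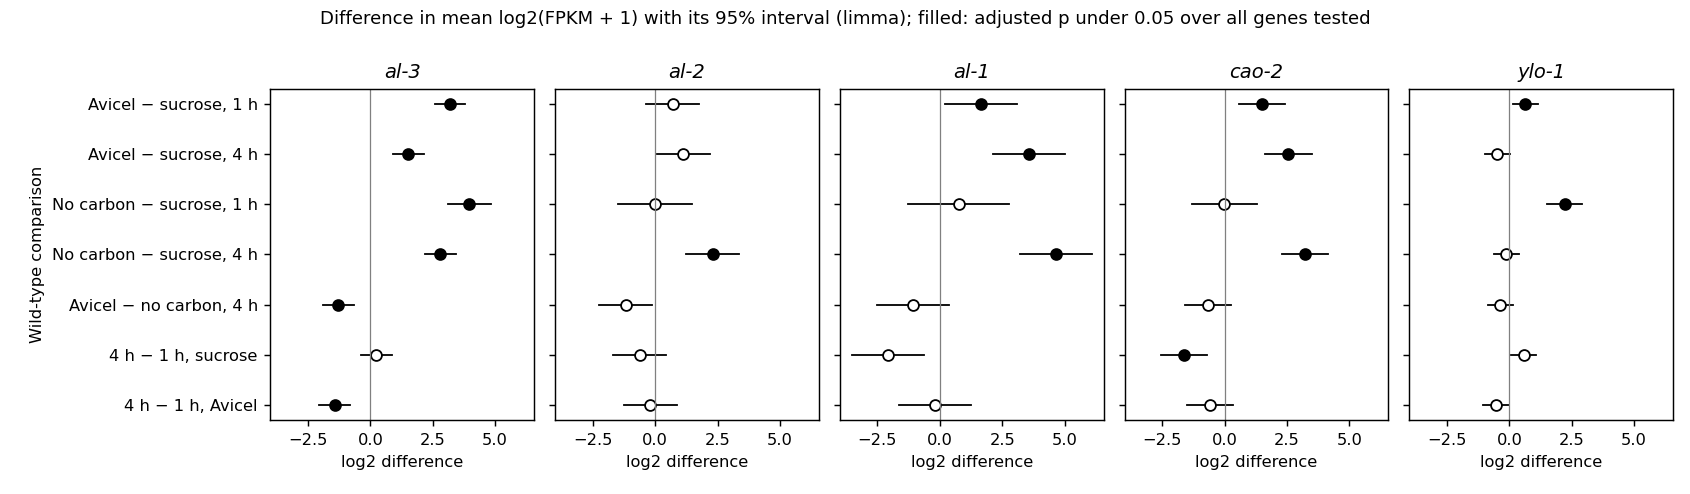
Difference in mean log2(FPKM + 1) with its 95% interval for each gene in 7 wild-type comparisons; filled points have a limma adjusted p under 0.05. The al-3 response to Avicel is 3.19 at 1 h and 1.52 at 4 h, and that of al-1 is 1.66 and 3.56.

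Within 1 medium, 1 of the 5 genes changed from 1 h to 4 h on Avicel and 1 on sucrose. On Avicel al-3 fell by 1.42 ± 0.29 on the log2 scale (limma adjusted p = 0.0019), and it was the 1 gene of 5 to pass, where 19.7% of all tested genes were lower at 4 h and 37.0% changed. For ylo-1 the difference was -0.54 ± 0.23 (limma adjusted p = 0.0876), and without Avicel 4 h replicate 1 it was -0.85 (adjusted p = 0.0026). Both al-3 and cao-2 had no overlap between the times, as did 49.1% of tested genes. On sucrose cao-2 fell by 1.65 ± 0.43 (limma adjusted p = 0.0350), where 3.72% of tested genes were lower and 7.61% changed. The cao-2 call was lost in 4 of 6 fits without 1 library, namely without sucrose replicate 2 or replicate 3 of either time, with adjusted p of 0.0958 to 0.154, and in a fit of those groups alone (0.0545). The al-1 difference on sucrose was -2.08 ± 0.67 (limma adjusted p = 0.0755), and without sucrose 1 h replicate 1 it was -2.61 (adjusted p = 0.0365). All 5 genes had separate groups at the 2 times on sucrose, as did 31.1% of tested genes, with al-1, al-2 and cao-2 lower at 4 h in their values and al-3 and ylo-1 higher.

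The single wild-type libraries extend this course and have no replicate of their own. On Avicel al-3 was 611 FPKM at 30 min, 1284 on average at 1 h (SD 319), 1775 at 2 h and 473 at 4 h (SD 78.3). The 2 h value was 3.39 times the highest 4 h library. The ylo-1 level was 703 FPKM at 30 min and 4550 at 2 h, which was 4.06 times the highest 1 h library and 4.22 times the highest 4 h library. The ylo-1 value at 2 h was the highest of that gene in all 26 libraries.

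The other 3 genes did not exceed the range of their 1 h libraries at 2 h. The al-1 level was 206 FPKM at 30 min, below all 1 h libraries, and 1128 at 2 h, within the 1 h range. For al-2 the values were 416 FPKM at 30 min and 452 at 2 h, both below all 1 h and 4 h libraries. For cao-2 they were 370.1 FPKM, inside the range of the 4 h libraries, and 436 FPKM, inside that of the 1 h libraries.

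**Figure D4:**
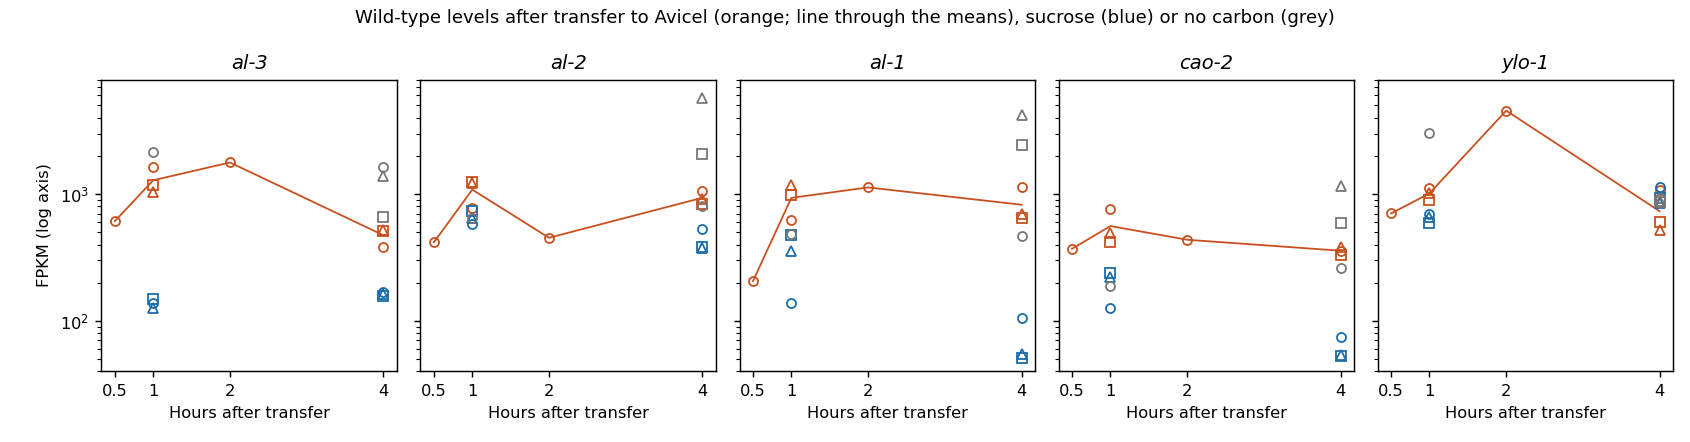
FPKM (log axis) of each gene against hours after transfer for wild type on Avicel (orange, line through the means), sucrose (blue) and no carbon (grey), each point being 1 library. The single 2 h library on Avicel has 4550 FPKM for ylo-1 and 1775 for al-3, above all Avicel libraries at 4 h.

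No carbon at 1 h has 1 library, so its tests hold no spread of that condition and assume that it varies as the triplicates do. It had 2160.3 FPKM of al-3 and 3009.6 of ylo-1. Under that assumption the differences from the sucrose libraries at 1 h were 3.97 ± 0.40 and 2.21 ± 0.33 (limma adjusted p = 3.636e-06 and 8.201e-05), where 35.5% of all tested genes were higher and 58.9% changed. Its values for al-1, al-2 and cao-2 were 480.0, 644 and 188 FPKM, at or inside the sucrose range for al-2 and cao-2 and just over it for al-1, and none of the 3 passed. Against no carbon at 1 h, ylo-1 was lower on Avicel, with a difference of -1.58 ± 0.33 (limma adjusted p = 0.0462), where 0.324% of tested genes were lower and 0.788% changed. The ylo-1 call was lost without Avicel replicate 2 (adjusted p = 0.140), without replicate 3 (0.0876), after rescaling (0.0941) and with voom (0.0834).

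With 1 library per deletion strain and condition, no difference of the 5 genes from wild type was detectable in 8 comparisons in limma, and the count at an unadjusted p under 0.05 was also 0. This does not show that the deletions leave these genes unaffected. On Avicel at 4 h, 1.26% of all tested genes changed in the clr-1 deletion and 1.01% in the clr-2 deletion, and on Avicel at 1 h 0.0116% and 0.0579%. On sucrose it was 0.0695% and 0.0811% at 4 h and 0.0464% and 0.0695% at 1 h. With voom on recovered reads the count was likewise 0. On Avicel at 4 h the clr-1 deletion library had 532 FPKM of al-3, 926 of al-2, 568 of al-1, 244 of cao-2 and 1106 of ylo-1. The clr-2 deletion library had 587, 741, 423, 229 and 857 FPKM in the same order. The values of al-1 and cao-2 lay below all wild-type libraries in both strains, and those of al-3 lay above. On sucrose at both times al-3 and ylo-1 lay below all wild-type libraries in both strains, al-3 at 109 and 97.5 FPKM at 1 h and at 113 and 93.7 at 4 h. On Avicel at 1 h al-3 lay below in the clr-1 deletion, at 821 FPKM, and inside the range in the clr-2 deletion.

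The intervals of these single libraries are wide, and they too rest on the shared spread. For al-1 that spread takes in the no-carbon libraries at 4 h. Their SD of log2(FPKM + 1) was 1.65, against 0.44 in wild type on Avicel at 4 h. For al-1 on Avicel at 4 h the 95% interval was -2.53 to 1.55 in the clr-1 deletion and -2.95 to 1.13 in the clr-2 deletion, so a several-fold difference would not have been detectable. Without the 4 short-read replicate 1 libraries, ylo-1 was higher in the clr-1 deletion by 0.99 (adjusted p = 0.0095). How many of all genes lay outside the range of the wild-type libraries was not counted, so a place outside it is not read as a change.

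In both deletion strains al-1, al-3, cao-2 and al-2 also had higher values on Avicel than on sucrose at 4 h. At 4 h the ratio of Avicel to sucrose for al-1 was 6.23 in the clr-1 deletion and 6.24 in the clr-2 deletion, beside 11.7 from the wild-type means. For al-3 it was 4.72 and 6.26, beside 2.91, and for cao-2 it was 3.17 and 3.44, beside 5.91. For ylo-1 it was 1.51 and 1.28, beside 0.749 in wild type, and for al-2 it was 1.36 and 1.21, beside 2.19. The deletion ratios come from 1 library each and their difference from wild type was not tested.

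The deposited ylo-1 values come from 2 transcript models that share their left end, and the longer, T1, runs 323 bases further. On sucrose at 4 h the shorter model, T0, held 28.3%, 14.5% and 21.4% of the ylo-1 FPKM, and on Avicel at 4 h it held 56.7%, 52.1% and 51.7%. The groups did not overlap, with a mean difference of 32.1 percentage points (n = 3 per group, two-sided exact permutation p = 0.1, the smallest that 3 against 3 allows). Among 149 genes with 2 models, 25.5% had separate groups in that comparison. Without carbon at 4 h T0 held 39.1% to 56.0%, above all sucrose libraries, as the groups were separate for 36.2% of such genes. At 1 h the share was 16.2% to 29.4% on Avicel and 21.2% to 23.6% on sucrose, which overlapped, while 23.7% of 152 genes with 2 models had separate groups. The Avicel libraries at 4 h lay above all those at 1 h, and 24.2% of such genes had separate groups there. In the deletion strains at 4 h it was 45.2% and 46.9% on Avicel and 19.9% and 19.7% on sucrose. The 2 models overlap, so each share is an estimate of how shared reads divide.

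**Figure D5:**
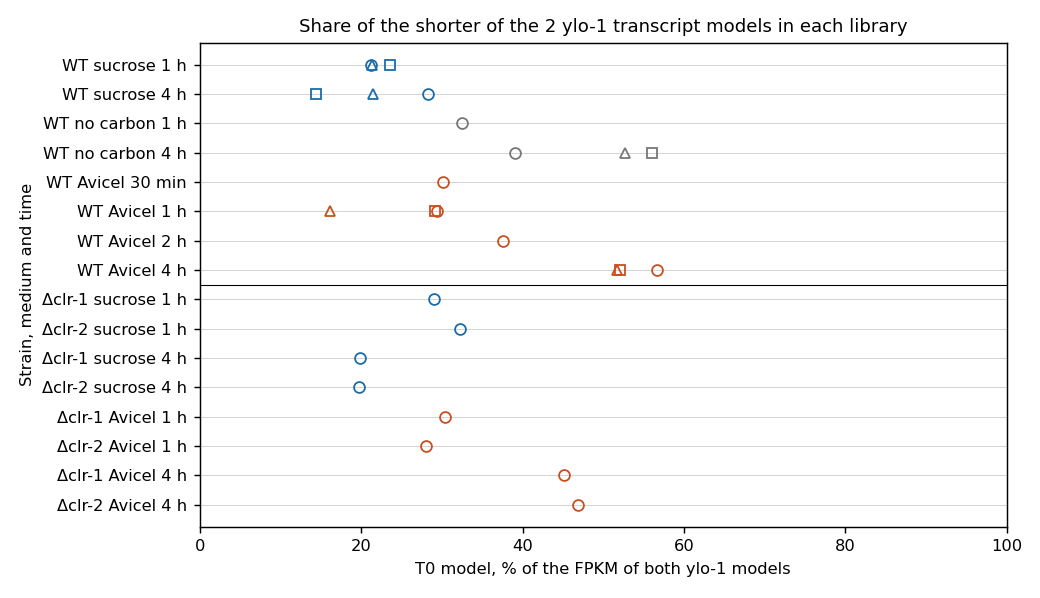
Share of the shorter ylo-1 transcript model T0 in the FPKM of both models (horizontal axis, %), for each library by strain, medium and time, with the symbol giving the replicate. The 3 wild-type Avicel libraries at 4 h lie at 51.7% to 56.7% and the 3 sucrose libraries at 14.5% to 28.3%.

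The genes around the pathway were counted by list. At 4 h, 5 of 9 light-sensing and light-controlled genes were higher on Avicel than on sucrose, where 34.3% of all tested genes were higher, and 7 of 9 were higher without carbon, where 39.6% were. On Avicel the cry values of 119 to 127 FPKM lay below all sucrose values, 209 to 312, with a difference of -0.97 that missed the threshold (limma adjusted p = 0.0800). The differences on Avicel were 0.08 for sub-1 and -0.06 for frq. The vvd difference was 1.88 ± 0.53 on Avicel (limma adjusted p = 0.0081) and 3.10 ± 0.53 without carbon (1.985e-04). The gene wc-2, for the partner of the photoreceptor WC-1, was higher by 0.60 and 0.94 in the same comparisons (adjusted p = 0.0045 and 1.495e-04). The opsin gene nop-1 was higher by 6.97 and 8.19. The phytochrome genes phy-1 and phy-2 were higher by 0.80 and 1.82 on Avicel and by 0.75 and 2.07 without carbon. On sucrose at 4 h nop-1 averaged 2.00 FPKM and phy-2 1.04, each with a library at 0. The size of the nop-1 and phy-2 differences therefore depends on the 1 added to FPKM. Without carbon cry and frq were also higher, by 1.28 and 0.86. For wc-1 the differences were 0.14 and 0.75 (limma adjusted p = 0.831 and 0.206). Between Avicel and no carbon, cry alone of the 9 passed, lower on Avicel with a difference of -2.25 ± 0.45 (limma adjusted p = 0.0084).

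All 5 genes listed as conidiation markers and measured (con-10, con-6, eas, fl and ccg-1) were higher at 4 h on Avicel and without carbon than on sucrose. This stands against the same 34.3% and 39.6% of all tested genes. These media differ in carbon source, so conidiation and a direct response of ccg-1 or another listed gene to carbon cannot be told apart. Their summed FPKM at 4 h was 524.7 to 1764 on sucrose, 89345 to 157312 on Avicel and 341047 to 381117 without carbon. Some sucrose libraries listed con-10 and con-6 at 0. Most of each sum was ccg-1 and eas, so the sums say little of the other markers. The mean of ccg-1 at 4 h was 1022 FPKM on sucrose, 108820 on Avicel and 243040 without carbon. That of eas was 202, 24105 and 116680 FPKM in the same order. At 1 h on Avicel against sucrose 2 of the 9 light genes were higher and 1 lower, and 3 of the 5 conidiation markers were higher, where 37.3% of all tested genes were higher and 62.0% changed. The share of light genes that changed was thus under that of all genes. The differences at 4 h were 7.20 for eas and 6.87 for ccg-1 on Avicel. The conidiation regulator fl was higher on Avicel by 1.18 ± 0.42 (limma adjusted p = 0.0271) and without carbon by 2.22 ± 0.42 (limma adjusted p = 4.155e-04). The part of these markers in the carotenoid values was not tested.

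Of the neighbouring enzymes, cao-1, an oxygenase that cleaves resveratrol and not a carotenoid, was higher at 4 h on Avicel by 0.85 ± 0.23 (limma adjusted p = 0.0062) and without carbon by 1.68 ± 0.23 (limma adjusted p = 2.953e-05). At 1 h it was lower on Avicel than on sucrose, with a difference of -0.66 ± 0.23 (limma adjusted p = 0.0241). The gene fpp, for farnesyl diphosphate synthase, which supplies the step of al-3, was lower on Avicel at 1 h, with a difference of -1.22 ± 0.28 (limma adjusted p = 0.0020), and without carbon at 4 h, with -0.95 ± 0.28 (limma adjusted p = 0.0097). On Avicel at 4 h its difference was -0.66 ± 0.28 (limma adjusted p = 0.0584). The sterol gene erg-3 did not pass in these comparisons, with -0.18 on Avicel and -0.60 without carbon at 4 h.

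Over the 16 group means of log2(FPKM + 1), the pair most alike was al-1 and cao-2, with a Pearson r of 0.90 and a Spearman rho of 0.84. For al-1 and al-3 r was 0.79, for al-3 and ylo-1 0.69 and for al-1 and al-2 0.69. For al-2 and ylo-1 r was -0.18 and rho 0.10. Among 7743 other genes, cao-2 ranked 4 in likeness to al-1, and al-1 ranked 3 in likeness to cao-2. In likeness to al-3, al-1 ranked 1608, ylo-1 2236, cao-2 2445 and al-2 3413, so many genes were more like al-3 than its pathway partners were. The genes most like al-1 were NCU02800, NCU01540, NCU08149, cao-2 and NCU09115 (r of 0.93 to 0.90), and those most like cao-2 were NCU09115, NCU08149, al-1, NCU06784 and NCU07966 (0.93 to 0.88). For al-3 they were NCU04796, pex11, NCU07363, NCU08018 and NCU00298 (0.98 each), for ylo-1 NCU08967, NCU07309, NCU07904, NCU09738 and xdh-1 (0.94 to 0.91), and for al-2 NCU00630, NCU09013, NCU07434, bli-4 and mus-18 (0.82 to 0.80). These are descriptions over group means that share the same libraries.

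In the authors' deposited tables for wild type at 4 h, the headings of the DESeq means and the edgeR signs run opposite to the FPKM. The DESeq fold ratios of the 5 genes do not. In the authors' deposited DESeq tables the column headed Avicel was on the side the FPKM give for 1.34% of 4547 called genes against sucrose and 0.957% of 418 against no carbon. In the authors' deposited edgeR tables, read as Avicel over the other medium, the sign of the log2 fold change matched for 2.33% of 5028 and 0.384% of 781. The DESeq fold ratios are given here as deposited and the edgeR values with their sign turned, so both stand for Avicel over the other medium. The authors' deposited DESeq table against sucrose lists al-1 at 10.2-fold (adjusted p = 5.6e-17), cao-2 at 5.11-fold (2.03e-09), al-3 at 2.51-fold (0.0044), al-2 at 1.97-fold (0.0324) and ylo-1 at 0.677-fold (0.356). The authors' deposited edgeR table puts al-2 higher on Avicel by 1.45 on the log2 scale (adjusted p = 0.0020) and ylo-1 at -0.15 (0.837). Against no carbon, the authors' deposited DESeq table has no adjusted p under 0.05 for the 5 genes, with 0.379-fold for al-1 (0.236). The authors' deposited edgeR table for that comparison lists al-2 at -1.92 (adjusted p = 0.0023), al-1 at -1.89 (0.0038), al-3 at -1.67 (0.0039), cao-2 at -1.16 (0.0914) and ylo-1 at -0.72 (0.297). None of the 5 genes is among the 212 genes of the authors' deposited clusters.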

How the data were processed

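The authors deposited FPKM per transcript, made with TopHat and Cufflinks 0.9.3 per the submitters' processing notes, with a coverage signal and lengths per the file headers. The authors' deposited DESeq tables hold normalised means (a score), a fold ratio and p-values, the deposited edgeR tables a log2 fold change and p-values, and the deposited cluster file a weight (a score). The genome build is not given in the sources used here. Transcripts (9907) were summed to 9733 genes, and coverage gave whole reads for 87.5% to 93.0% of transcripts with up to 200 reads (tolerance 0.02). Genes averaging 1 FPKM or more were modelled as log2(FPKM + 1) with limma 3.58.1 (R 4.3.3), each of the 16 groups having its own mean over the 26 libraries, with eBayes trend, Benjamini-Hochberg adjustment per comparison (17 in all) and 10 residual degrees of freedom. The script was tested on simulated data. Single libraries are assumed to vary as wild-type triplicates do. Same-numbered libraries deviated together for Avicel and sucrose at 4 h (r of 0.12 to 0.18) and at 1 h (0.18 to 0.28), every pair over 0.1. The numbers were therefore taken to pair these groups. The main fit, which gives the differences and standard errors above, does not use this pairing. The replicate block was fitted only over all wild-type triplicates, no carbon at 4 h among them. Replicate 1 is also the short-read library with the fewest reads in each Avicel and sucrose group. Pairing, read length and depth therefore cannot be told apart. The 5 genes are named because they are the pathway. The members and lists were chosen with earlier results of these data known. The con-8 gene, the HMG-CoA reductase and erg-11 genes, whose IDs the RefSeq table does not pair with those names, and sequences are not used here. Where a design row named another gene ID for cao-1, the ID that the RefSeq table gives was used. Alternatives were pseudocounts, filters, scaling, groups fitted, replicate block, voom on recovered reads and leaving out libraries. Figures used matplotlib 3.10.9, and permutation tests scipy 1.17.1.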

Additional observations from a re-analysis of the deposited data

Results flagged for a closer look

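For al-3 the response to Avicel differed between the time points: the difference from sucrose was 3.19 at 1 h and 1.52 at 4 h, and the change of -1.67 passed its own test (limma adjusted p = 0.0077), though not without the 4 short-read replicate 1 libraries (-1.31, adjusted p = 0.0537). For ylo-1 the response was 0.63 at 1 h and -0.48 at 4 h, and the change of -1.12 passed as well (limma adjusted p = 0.0211), though not in 3 fits without 1 library or after rescaling, as given above.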

How the results depend on the processing

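Of 1055 values of single genes under the alternatives, 980 kept direction and side of the threshold, 31 lost a call, 20 gained one and 24 changed sign, of which 0 were called before. Of the counts of the 5 genes that changed, per comparison and setting, 181 stayed within 1.5 times and 30 did not. The cause of these moves was not tested, except that fits without libraries hold fewer samples. Avicel against no carbon at 4 h gave 0 genes with only its own groups, 2 without the 4 wild-type replicate 1 libraries with short reads (called without short reads from here on) and 0 to 2 without single libraries. At 1 h against sucrose, rescaling and leaving out short reads each gave 2, and single libraries 2 to 3. The change of the Avicel response gave 1 under each of these 2 settings and 1 to 2 without single libraries. Sucrose at 4 h against 1 h gave 0 with its own groups, 3 without short reads, 2 with voom and 0 to 2 without single libraries. Avicel at 4 h against 1 h gave 2 without short reads, with voom and with the replicate block, and 1 to 2 without single libraries. There the numbers do not pair the samples, and ylo-1 had an adjusted p of 0.0466 with the block. The replicate block changed no other call than this and that of ylo-1 given beside its result. Avicel against no carbon at 1 h gave 0 after rescaling and with voom and 0 to 1 without single libraries, and the clr-1 deletion on Avicel at 4 h gave 1 without short reads.

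Values that changed sign were 0.61 for ylo-1 without carbon against sucrose at 4 h with voom, and, at 1 h with voom, 0.12 for al-2 and 0.063 for cao-2. Without short reads they were 0.083 for al-2 in the clr-1 deletion on Avicel at 4 h (0.22 with voom), -0.16 for al-1 there at 1 h, -0.39 for al-1 in that strain on sucrose at 1 h and 0.075 for ylo-1 in the clr-2 deletion on Avicel at 1 h, and after rescaling -0.032 for al-1 in the clr-2 deletion on sucrose at 4 h. Without single libraries the values ran from -0.44 to 0.020 (al-1, Avicel at 4 h against 1 h), -0.091 to 0.078 (al-2) and -0.29 to 0.16 (cao-2, both without carbon against sucrose at 1 h). In the clr-1 deletion they ran from -0.16 to 0.30 (al-1, Avicel 1 h), -0.39 to 0.50 (al-1, sucrose 1 h) and -0.089 to 0.083 (al-2, Avicel 4 h). In the clr-2 deletion they ran from -0.79 to 0.11 (al-1) and -0.17 to 0.0041 (al-2) on sucrose at 1 h, -0.16 to 0.35 (al-1, sucrose 4 h), and on Avicel at 1 h -0.078 to 0.26 (al-3), -0.093 to 0.35 (cao-2) and -0.090 to 0.075 (ylo-1).

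Over all genes, Avicel against no carbon at 4 h had 465 calls, 1145 without short reads, 792 with voom and 300 without no-carbon replicate 3. Sucrose at 4 h against 1 h had 657 calls, 2988 without short reads and 197 to 435 under 5 other settings. At 1 h against no carbon, 68 calls became 30 to 2368. In the clr-1 and clr-2 deletions on Avicel at 4 h, 109 and 87 calls became 383 and 194 without short reads. The counts of the other deletion comparisons moved as well, at 4 h on sucrose from 6 to between 0 and 1599 and from 7 to between 4 and 1078, at 1 h on sucrose from 4 to between 1 and 276 and from 6 to between 14 and 99, and at 1 h on Avicel from 1 to between 2 and 37 and from 5 to between 3 and 19. Rescaling turned the 5 higher and 1 lower calls of the clr-1 deletion on sucrose at 4 h to 0 and 1, and the 1 and 3 at 1 h to 0 and 4. It moved the median of all genes from 0.44 to 0.26 for no carbon against sucrose at 1 h, and from -0.034 to 0.090 for Avicel at 4 h against 1 h. Of Avicel at 4 h against 1 h, 3195 calls became 2098 in a fit of its own groups. Counting error is at most 5.73% of a value for these 5 genes, and the conditions with 1 library have no replicate spread of their own.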
